A study of Mus musculus with 16 samples.

Results

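The transcripts followed here encode inhibitory receptors of B cells and the enzymes that work directly with them. They are the receptors Cd22, Siglecg, Fcgr2b, Cd72 and Pecam1, the phosphatase Ptpn6 and the kinase Lyn. They were picked from the count table by gene symbol. The rule uses no measured value, but it was set with earlier results of these data known. All 7 were among the 9443 genes listed in the count table, and all 7 passed the filter on low counts that left 6824 genes for testing.

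In the study, polyadenylated RNA was read from B cells of lymph node germinal centres in wild-type mice, sorted into light zone (LZ) and dark zone (DZ) cells 4 h after an antibody was given in vivo. The antibody was anti-CD40, which binds CD40, the molecule on B cells that receives CD40 ligand from helper T cells, or an isotype control. The 4 groups were anti-CD40 LZ, isotype LZ, anti-CD40 DZ and isotype DZ, with 4 libraries each, and the series title concerns Myc and the positive selection of B cells by T cells. The labels give no strain, age, immunisation, antibody dose, sort gate or number of mice, and do not say whether the libraries of a group came from separate mice, so p-values measure the spread between these samples, which may be technical.

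Inhibitory receptors of B cells carry short tyrosine motifs, called ITIMs, in their cytoplasmic tails. When the B cell receptor is engaged, the Src family kinase Lyn phosphorylates these motifs, which then hold phosphatases at the membrane: the tyrosine phosphatase encoded by Ptpn6 (SHP-1) or the lipid phosphatase encoded by Inpp5d (SHIP-1). These enzymes remove the phosphates on which B cell receptor signalling runs, so the receptors set a threshold for antigen. Germinal centre B cells are known for damped B cell receptor signalling and high phosphatase activity.

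Libraries held 493131 to 1473415 unique molecular identifiers (UMI), and 8718 to 9353 genes were detected in each. Levels are given as CPM, that is UMI per 1000000 UMI of the library as scaled by TMM factors, and 1 UMI stood for 0.651 to 2.05 CPM. Cd40 itself was at 812 ± 59.6 CPM in anti-CD40 LZ and 248 ± 14.1 CPM in isotype LZ, and at 420.2 ± 54.0 CPM in anti-CD40 DZ and 121 ± 6.37 CPM in isotype DZ (SD, n = 4 each). Of 8 B cell markers all 8 were listed, and their summed level was 15669 to 23267 CPM in anti-CD40 LZ, 22009 to 24950 CPM in isotype LZ, 18341 to 22434 CPM in anti-CD40 DZ and 19827 to 23736 CPM in isotype DZ. Germinal centre markers, 7 of 8 of them listed, summed to 477.5 to 882 CPM in anti-CD40 LZ, 800 to 1736 CPM in isotype LZ, 801 to 1423 CPM in anti-CD40 DZ and 1275 to 2206 CPM in isotype DZ; their part in the changes below was not tested. Of the LZ markers, 6 of 7 tested passed as higher in the LZ than in the DZ under isotype, where 1.29% of all tested genes did. Of 9 DZ markers all 9 had negative changes there and none passed, where 0.938% of all tested genes passed as lower. Anti-CD40 itself moved these markers. In the LZ, 5 of the 7 LZ markers passed as higher and 1 as lower, and 4 of the 9 DZ markers passed as lower. Of all tested genes 10.8% passed as higher there and 8.24% as lower. In the DZ, 5 of the 7 LZ markers passed as higher and none of the DZ markers passed. Of all tested genes 2.24% passed as higher there and 0.147% as lower. Whether cells sorted as LZ or DZ were the same population under both antibodies was not tested. In bulk RNA, fewer cells expressing a gene and less RNA per cell cannot be told apart.

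The sequences around the transcription start are shown for Cd22, Siglecg and Cd72, the receptors with a RefSeq promoter entry in which a comparison below passed its test. Each is read 5′ to 3′ on the strand of the gene, from 250 bases before to 50 bases after the start (RefSeq, GRCm38.p6). Both strands were searched for 5 motifs: the octamer (ATGCAAAT), a core of PU.1 sites (GAGGAA), an EBF site (CCCNNGGG), a FoxO site (GTAAACA) and the kB consensus. Capitals mark the matches.

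Cd22, chr7:30878979-30879278, minus strand: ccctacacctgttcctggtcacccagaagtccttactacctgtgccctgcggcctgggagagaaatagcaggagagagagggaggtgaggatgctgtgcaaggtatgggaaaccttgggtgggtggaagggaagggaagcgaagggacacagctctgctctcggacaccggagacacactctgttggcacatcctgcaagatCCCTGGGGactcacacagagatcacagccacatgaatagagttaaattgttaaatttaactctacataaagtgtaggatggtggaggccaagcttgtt

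Siglecg, chr7:43407989-43408288, plus strand: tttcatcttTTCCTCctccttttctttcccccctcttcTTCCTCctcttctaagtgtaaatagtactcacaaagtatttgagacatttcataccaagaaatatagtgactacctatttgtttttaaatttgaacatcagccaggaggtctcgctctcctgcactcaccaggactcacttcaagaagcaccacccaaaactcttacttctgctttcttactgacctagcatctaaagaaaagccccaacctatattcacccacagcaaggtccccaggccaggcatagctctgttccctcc

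Cd72, chr4:43454577-43454876, minus strand: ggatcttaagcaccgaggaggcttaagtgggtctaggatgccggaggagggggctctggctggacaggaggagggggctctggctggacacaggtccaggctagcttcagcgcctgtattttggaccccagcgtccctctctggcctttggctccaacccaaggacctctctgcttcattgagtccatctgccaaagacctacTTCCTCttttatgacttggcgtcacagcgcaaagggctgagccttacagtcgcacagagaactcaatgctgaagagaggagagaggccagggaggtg

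The Cd22 window held 1 match to the EBF letters, from -48 to -41. The Siglecg window held 2 matches to the PU.1 core on the opposite strand, from -241 to -236 and from -212 to -207, and the Cd72 window held 1 on the opposite strand, from -47 to -42. No match overlapped another. Among 27025 promoter windows of 300 bases, 28.3% held the PU.1 core, 13.4% the EBF letters, 8.18% the kB consensus, 3.55% the FoxO letters and 1.75% the octamer. A window of a second Siglecg start and those of Fcgr2b and Ptpn6 held no match to any of the 5 motifs. RefSeq windows were found for 5 of the 7 genes; Pecam1 and Lyn are named only.

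The first question was what anti-CD40 did to these transcripts within each zone. In the LZ, Cd22, Siglecg and Pecam1 fell, by 2.20- to 3.73-fold. None of the 7 passed the test in the DZ. With replicate number as a block, an alternative given at the end, Cd22 passed there (edgeR adjusted p = 0.0292). So did the differences between the zones' changes for Cd22, Siglecg and Pecam1. That block raised the genes called in the DZ from 163 to 427. In the LZ all 7 changes were negative, with a median log2 fold change of -0.47, against 0.0067 over all tested genes; in the DZ the median over the 7 was -0.16, against -0.01 over all. Tests are edgeR's quasi-likelihood test with Benjamini-Hochberg adjustment over the 6824 genes, and a gene passed at an adjusted p under 0.05. In the LZ 8.24% of all tested genes passed as lower and 10.8% as higher, so that 562 fell and 740 rose (758 and 596 with upper quartile factors, 774 and 579 with library totals). In the DZ 0.147% passed as lower and 2.24% as higher.

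Together the 7 transcripts made up 0.215 to 0.269% of all UMI in anti-CD40 LZ libraries and 0.390 to 0.428% in isotype LZ libraries. They made up 0.220 to 0.284% in anti-CD40 DZ libraries and 0.287 to 0.320% in isotype DZ libraries. In neither zone did the ranges of the treatments overlap. Cd22 and Ptpn6 supplied most of these UMI in each group, but the treatments differed mainly in Cd22 and Siglecg. Mean Cd22 in the LZ was 1575 CPM under isotype and 692 CPM under anti-CD40. For Siglecg these means were 554 and 251 CPM, and for Ptpn6 1167 and 1095 CPM. In the DZ they were 1075 and 795 CPM for Cd22, 498 and 387 CPM for Siglecg, and 891 and 887 CPM for Ptpn6. How often other sets of 7 genes separate in this way was not tested.

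**Figure D1:**
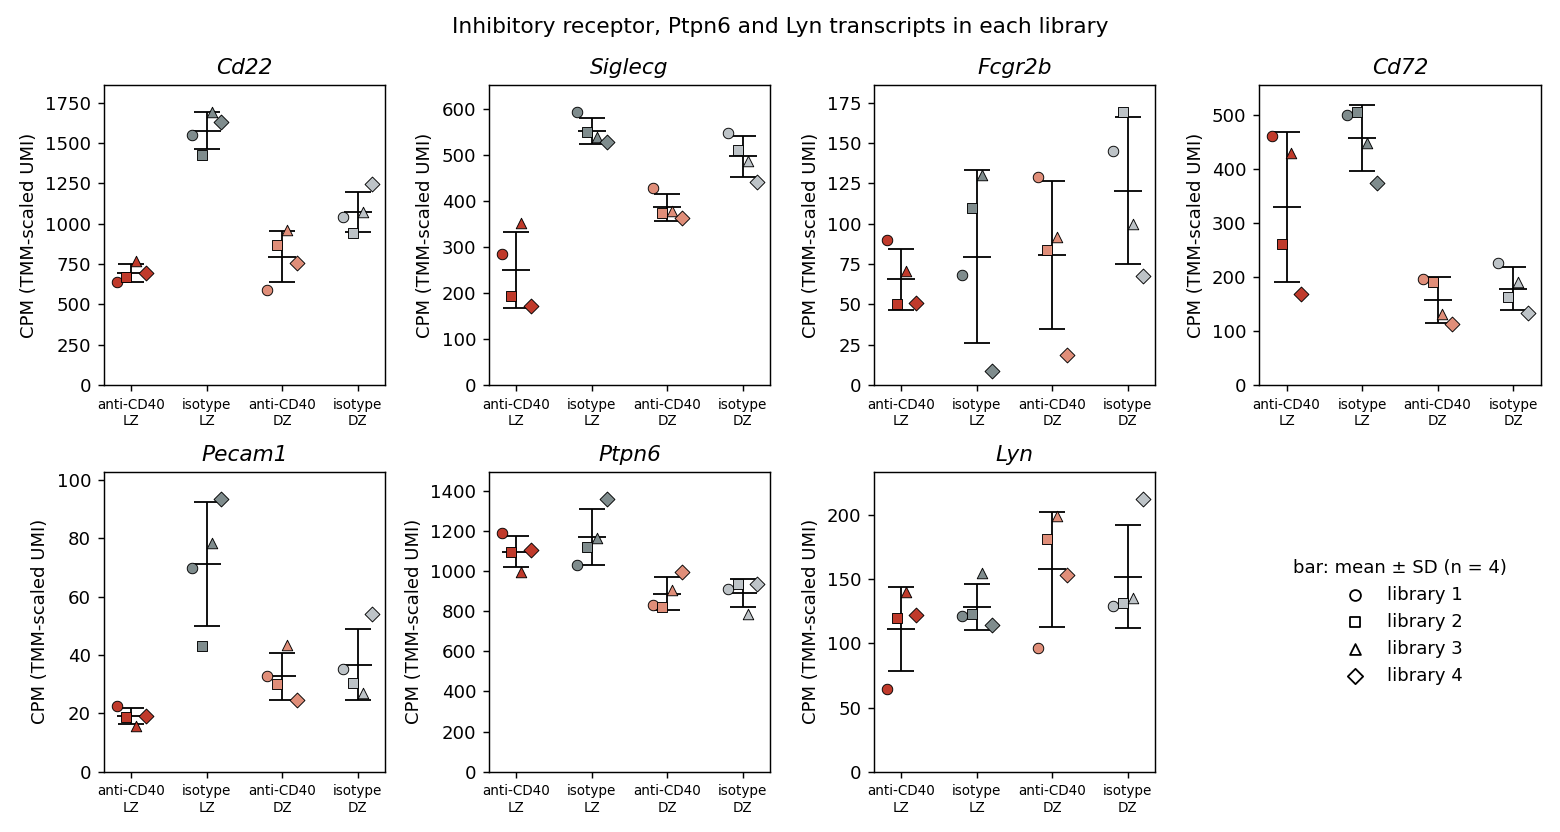
Level of each of the 7 transcripts in every library, in CPM (TMM-scaled UMI) on linear axes that start at 0, by group; symbols give the library number, and bars the mean and SD of 4 libraries. For Cd22, Siglecg and Pecam1 the highest anti-CD40 LZ library lies under the lowest isotype LZ library, and for Ptpn6 the treatments overlap within each zone.

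CD22 is a receptor that binds sialic acid on glycoproteins in cis and in trans, and it recruits SHP-1. The gene lies at chr7:30865402-30880342 on the minus strand (GENCODE vM21, GRCm38). In anti-CD40 LZ libraries 1 to 4, Cd22 was at 637, 669, 769 and 695 CPM, against 1552, 1426, 1691 and 1631 CPM in isotype LZ libraries 1 to 4. The highest anti-CD40 library was far below the lowest isotype library, a separation of this direction seen in 9.03% of all tested genes. Cd22 was thus 2.27-fold lower, with a log2 fold change of -1.19 (SE 0.15, 95% interval -1.50 to -0.87; edgeR adjusted p = 2.99e-05). Within the groups the SD was 56.3 CPM in anti-CD40 LZ and 115 CPM in isotype LZ (n = 4 each).

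In the DZ, Cd22 was at 592, 871, 959 and 758 CPM in anti-CD40 libraries 1 to 4, against 1042, 943, 1069.5 and 1243 CPM in isotype libraries 1 to 4. The groups overlapped, through anti-CD40 library 3 and isotype library 2. Cd22 had a log2 fold change of -0.44 there (SE 0.15, 95% interval -0.75 to -0.12; edgeR adjusted p = 0.188). Ordered by mean, isotype LZ (1575 CPM) stood apart from isotype DZ (1075 CPM), which overlapped anti-CD40 DZ (795 CPM), which in turn overlapped anti-CD40 LZ (692 CPM). The change in the LZ was more negative than that in the DZ by 0.75 on the log2 scale (log2 difference -0.75, SE 0.21; unadjusted p = 0.00215, edgeR adjusted p = 0.303), a difference that did not pass.

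Siglec-G is the other sialic acid receptor of mouse B cells, best known for restraining calcium signals in B-1 cells. Siglecg lies at chr7:43408204-43418358 on the plus strand. In anti-CD40 LZ libraries 1 to 4 it was at 285, 194, 352 and 173 CPM, against 594, 551, 541 and 529 CPM in isotype LZ libraries 1 to 4. The groups did not overlap, though the anti-CD40 libraries were spread more widely, with 251 ± 83.1 CPM against 554 ± 28.3 CPM (SD, n = 4 each). Siglecg was 2.20-fold lower, with a log2 fold change of -1.14 (SE 0.18, 95% interval -1.52 to -0.76; edgeR adjusted p = 0.000245).

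In the DZ, Siglecg was at 429.9, 374, 379.6 and 363 CPM in anti-CD40 libraries, against 549.5, 512, 489 and 443 CPM in isotype libraries. Every anti-CD40 DZ library was below every isotype DZ library, as was so for 2.4% of all tested genes. The fitted difference still did not pass, at a log2 fold change of -0.36 (SE 0.18, 95% interval -0.74 to 0.01; edgeR adjusted p = 0.474). Isotype LZ and isotype DZ overlapped, anti-CD40 DZ stood below both and anti-CD40 LZ stood below all. The difference between the zones' changes was -0.77 on the log2 scale (SE 0.25; unadjusted p = 0.00665, edgeR adjusted p = 0.355).

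PECAM-1 (CD31) is an adhesion receptor with ITIMs that binds itself on other cells and is found on B cells as well as on endothelium and platelets. Pecam1 lies at chr11:106654217-106750628 on the minus strand. It was a scarce transcript, at 14, 12, 14 and 12 UMI in anti-CD40 LZ libraries 1 to 4 and 52, 27, 42 and 53 UMI in isotype LZ libraries 1 to 4. These counts corresponded to 22.4, 18.9, 15.8 and 19.0 CPM in anti-CD40 LZ, against 69.9, 43.0, 78.3 and 93.5 CPM in isotype LZ. The groups did not overlap. Pecam1 was 3.73-fold lower, with a log2 fold change of -1.90 (SE 0.30, 95% interval -2.52 to -1.28; edgeR adjusted p = 0.000178), the most negative of the 7 genes.

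In the DZ, Pecam1 was at 32.8, 29.9, 43.4 and 24.6 CPM in anti-CD40 libraries and 35.3, 30.4, 27.0 and 54.1 CPM in isotype libraries. The groups overlapped throughout, with a log2 fold change of -0.15 (SE 0.27, 95% interval -0.73 to 0.42; edgeR adjusted p = 0.948). The difference between the zones' changes was -1.75 (SE 0.40, 95% interval -2.59 to -0.90), with an unadjusted p of 0.000351 that ranked 11 among the 6824 genes and an edgeR adjusted p of 0.202. Over all genes the same test passed 1 gene, as lower, or 0.0147%, and none as higher, while 586 genes had an unadjusted p under 0.05. DESeq2 passed 38 genes, among them Cd22 (log2 difference -0.76, adjusted p = 0.0482 in DESeq2).

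Markers of other cell types were counted, beginning with endothelium, where Pecam1 is also expressed. Of 14 markers 3 were listed (Vwf, Egfl7 and Eng). Their summed UMI were 2 to 4 in anti-CD40 LZ libraries and 0 to 23 in isotype LZ libraries, and the 23 were all in isotype LZ library 1, while the other isotype LZ libraries had 0, 1 and 1. Without isotype LZ library 1, the Pecam1 log2 fold change was -1.96 (edgeR adjusted p = 0.000625). Endothelial cells' part in the Pecam1 change was not tested. Of 14 stromal and follicular dendritic cell markers 2 were listed. Mfge8 had 74 UMI in isotype LZ library 1, against 3 to 7 in the other isotype LZ libraries. Madcam1 had 4 to 11 UMI in anti-CD40 LZ libraries and 0 or 1 in isotype LZ libraries. None of 11 platelet and red cell markers was listed, and of 12 T cell markers 1 was, Lat, at 5 to 24 UMI. Of 19 myeloid and dendritic cell markers 6 were listed. Their summed levels were 437 to 634 CPM in anti-CD40 LZ and 569 to 700 CPM in isotype LZ. In the DZ the sums were 708 to 850 CPM under anti-CD40 and 645 to 858 CPM under isotype. Cst3 and Cybb made up most of each sum. Group means of Cd68 were 15.9 to 26.7 CPM, and those of Lyz2, Tyrobp and Ly6c2 were 1.36 to 7.66 CPM. Cst3, singled out after its values were seen, was at 184 ± 36.8 CPM in anti-CD40 LZ and 333 ± 14.8 CPM in isotype LZ (SD, n = 4 each). Its log2 fold change was -0.85 in the LZ (edgeR adjusted p = 0.00395) and -0.61 in the DZ (edgeR adjusted p = 0.108). Cybb, singled out likewise, was at 401 ± 47.4 CPM in anti-CD40 DZ and 181 ± 15.9 CPM in isotype DZ (SD, n = 4 each). Its log2 fold change was 1.15 in the DZ (edgeR adjusted p = 0.000507) and 0.40 in the LZ (edgeR adjusted p = 0.119). Cst3 and Cybb thus had changes of opposite sign in both zones. Cd68 had log2 fold changes of -0.17 in the LZ and 0.15 in the DZ (edgeR adjusted p = 0.811 and 0.974). The part of these other cell types in the changes of Cd22, Siglecg and Pecam1 was not tested.

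Fc gamma receptor IIb binds the Fc part of IgG in immune complexes and works mainly through SHIP-1. Fcgr2b lies at chr1:170958617-170976547 on the minus strand. It was at 89.8, 50.5, 71.0 and 50.7 CPM in anti-CD40 LZ libraries 1 to 4, against 68.5, 109.8, 130.5 and 8.82 CPM in isotype LZ libraries 1 to 4. In the DZ it was at 129, 84.0, 91.7 and 18.4 CPM in anti-CD40 libraries and 145, 169, 100.1 and 67.9 CPM in isotype libraries. All 4 groups overlapped, and library 4 was the lowest of its group in isotype LZ (5 UMI), anti-CD40 DZ (9 UMI) and isotype DZ (54 UMI). Fcgr2b passed in no comparison. Its intervals were the widest of the 7 genes, with a log2 fold change of -0.27 in the LZ (95% interval -1.35 to 0.81; edgeR adjusted p = 0.78) and -0.54 in the DZ (95% interval -1.54 to 0.47; edgeR adjusted p = 0.845), so that changes of more than 2-fold lay within the intervals. In the LZ its direction was not stable: the log2 fold change was 0.19 with limma-voom.

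Library 4 was also the lowest of its group for Siglecg and for Cd72 in 4 of 4 groups. This held for Pecam1 and Lyn in 1 of 4 groups each, and for Cd22 and Ptpn6 in none. Without the 4 libraries numbered 4, the log2 fold changes in the LZ were -1.19 for Cd22, -1.03 for Siglecg and -1.77 for Pecam1, and all 3 passed (edgeR adjusted p = 3.83e-05, 0.000348 and 0.000287).

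CD72 is a C-type lectin-like receptor that binds the semaphorin CD100, encoded by Sema4d, and recruits SHP-1. Cd72 lies at chr4:43446462-43454628 on the minus strand, and its 3′ end overlaps the gene Tesk1 on the other strand over 1603 bases. Whether strand was used in counting is not given in the sources used here, so reads there may belong to either gene. Genes on the other strand also overlap Cd22 (Gm29439), Fcgr2b (Gm38204), Ptpn6 (Gm20531) and Lyn (4 genes). None of these is listed in the count table, and their part in the counts was not tested. Cd72 was at 462, 262, 431 and 169 CPM in anti-CD40 LZ libraries 1 to 4, against 501, 506, 449 and 376 CPM in isotype LZ libraries 1 to 4. The groups overlapped, with anti-CD40 libraries 2 and 4 below every isotype library. Cd72 had a log2 fold change of -0.47 (SE 0.26, 95% interval -1.01 to 0.08; edgeR adjusted p = 0.237). In the DZ the libraries ran over 196, 191, 132 and 113 CPM under anti-CD40 and 227, 163, 190.3 and 135 CPM under isotype, and the log2 fold change was -0.16 (SE 0.26; edgeR adjusted p = 0.941).

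SHP-1, the product of Ptpn6, is the phosphatase that most of these receptors share. Ptpn6 lies at chr6:124720707-124738714 on the minus strand. It was at 1187, 1093, 996 and 1105 CPM in anti-CD40 LZ libraries 1 to 4, against 1029, 1119, 1161 and 1358 CPM in isotype LZ libraries 1 to 4. In the DZ it was at 830.1, 820.1, 906 and 993 CPM in anti-CD40 libraries, against 908, 936, 785 and 933 CPM in isotype libraries. The treatments overlapped in both zones. Ptpn6 had a log2 fold change of -0.09 in the LZ (95% interval -0.36 to 0.18; edgeR adjusted p = 0.7) and -0.0066 in the DZ (95% interval -0.28 to 0.26; edgeR adjusted p = 0.996), intervals that exclude a fall of the size fitted for Cd22 in the LZ.

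Lyn has a double role, since it can start B cell receptor signalling and also phosphorylates the inhibitory motifs. The gene lies at chr4:3678115-3813122 on the plus strand. It was at 64.1, 119.8, 139.8 and 122 CPM in anti-CD40 LZ libraries 1 to 4, against 121, 123, 155 and 115 CPM in isotype LZ libraries 1 to 4. In the DZ it was at 96.1, 181, 199 and 154 CPM in anti-CD40 libraries and 129, 132, 135 and 212 CPM in isotype libraries. All groups overlapped, and library 1 was the lowest under anti-CD40 in both zones. Lyn had a log2 fold change of -0.19 in the LZ (95% interval -0.73 to 0.34; edgeR adjusted p = 0.67) and 0.05 in the DZ (95% interval -0.46 to 0.56; edgeR adjusted p = 0.986). For Fcgr2b, Cd72, Ptpn6 and Lyn the differences between the zones' changes ran between -0.30 and 0.27 on the log2 scale, with edgeR adjusted p of 0.865 or more.

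**Figure D2:**
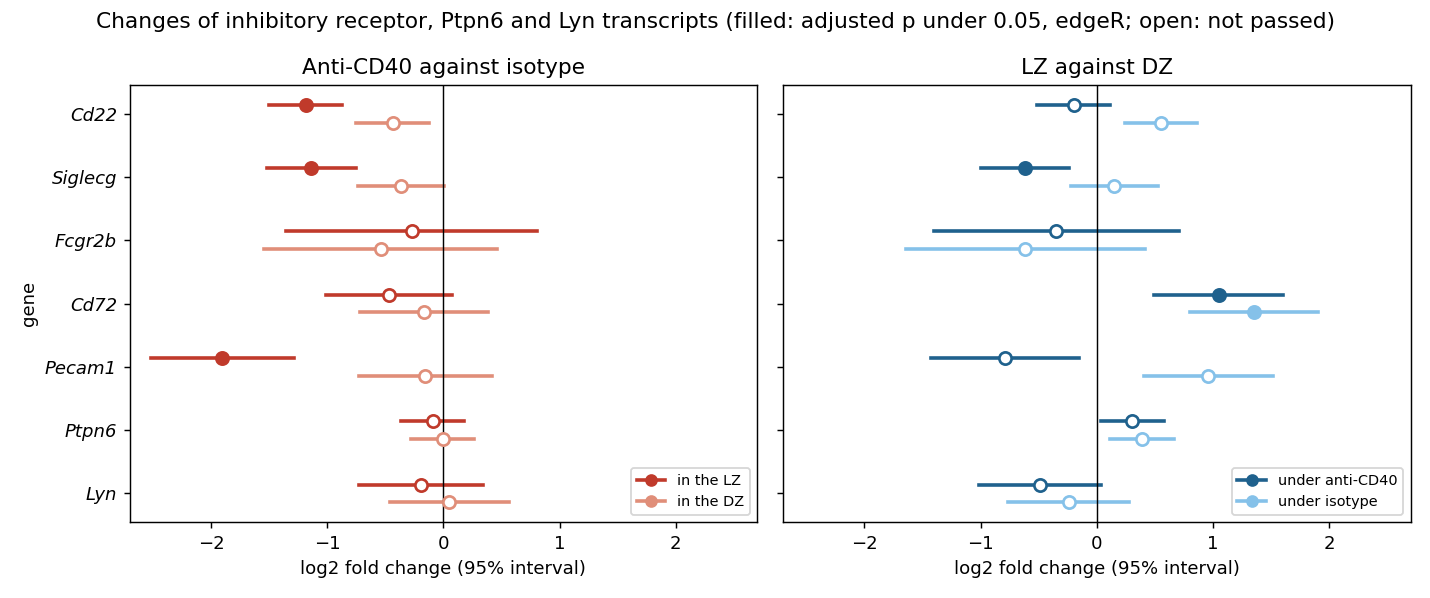
Log2 fold changes of the 7 transcripts with their 95% intervals, comparing anti-CD40 with isotype in each zone (left) and LZ with DZ for each antibody (right); filled points passed an adjusted p under 0.05 in edgeR. Cd22 (-1.19), Siglecg (-1.14) and Pecam1 (-1.90) passed in the LZ, no gene passed in the DZ, and Cd72 was higher in the LZ than in the DZ under both antibodies.

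The other question was how the zones differ. Cd72 was higher in the LZ than in the DZ in both treatments. Under isotype its level was 458 ± 60.6 CPM in the LZ and 179 ± 39.4 CPM in the DZ (SD, n = 4 each), with every LZ library above every DZ library. The log2 fold change was 1.35 (SE 0.26, 95% interval 0.80 to 1.90), or 2.55-fold (edgeR adjusted p = 0.00792); in this comparison 1.29% of all tested genes passed as higher and 0.938% as lower. The overlapping gene Tesk1 was at 68.4 ± 12.9 CPM in isotype LZ and 61.8 ± 18.6 CPM in isotype DZ, with an adjusted p of 0.887 in edgeR.

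Under anti-CD40, Cd72 was at 331 ± 139 CPM in the LZ and 158 ± 41.9 CPM in the DZ (SD, n = 4 each). LZ library 4 lay within the range of the DZ libraries. The log2 fold change was 1.05 (SE 0.27, 95% interval 0.50 to 1.60), or 2.07-fold (edgeR adjusted p = 0.0131), where 6.14% of all tested genes passed as higher and 5.38% as lower (419 and 367 genes, against 341 and 472 with upper quartile factors and 297 and 530 with library totals). It missed the threshold without anti-CD40 LZ library 1 (log2 fold change 0.82, adjusted p = 0.0588) and without anti-CD40 DZ library 3 (0.93, adjusted p = 0.0597).

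Siglecg was lower in the LZ than in the DZ under anti-CD40, with 251 ± 83.1 CPM in the LZ and 387 ± 29.7 CPM in the DZ (SD, n = 4 each). No LZ library reached the lowest DZ library, as was so for 7.62% of all tested genes. Siglecg was 1.54-fold lower in the LZ, with a log2 fold change of -0.62 (SE 0.18, 95% interval -0.9997 to -0.24; edgeR adjusted p = 0.0302). The call was lost in the fit of these 2 groups alone (-0.67, adjusted p = 0.0697) and without anti-CD40 LZ library 2 or 4 or anti-CD40 DZ library 1 or 3 (adjusted p = 0.0946, 0.0988, 0.0605 and 0.0505). Under isotype the zones overlapped, at 554 ± 28.3 CPM in the LZ and 498 ± 44.7 CPM in the DZ, with a log2 fold change of 0.15 (SE 0.18; edgeR adjusted p = 0.823). The LZ-against-DZ comparisons share their libraries with the treatment comparisons and are not separate evidence.

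For Cd22 and Pecam1 the sign of the zone difference depended on the antibody, and neither passed under either in the edgeR fit of group means over all 16 libraries. Cd22 in the LZ was 1575 ± 115 CPM and in the DZ 1075 ± 125 CPM under isotype (log2 fold change 0.55, SE 0.15; edgeR adjusted p = 0.0616), with no overlap between the zones, as in 4.32% of all tested genes. Under anti-CD40 the Cd22 log2 fold change was -0.20 (SE 0.15; edgeR adjusted p = 0.475) and the zones overlapped. In the authors' deposited table, made with DESeq2, the Cd22 difference under isotype was 0.55 with an adjusted p of 0.0273 and so passed there, while that of Pecam1 was 0.96 with an adjusted p of 0.0604 and that of Ptpn6 0.38 with an adjusted p of 0.0954, and these did not. Under isotype, Cd22 and Pecam1 both passed in the DESeq2 fit of the 6824 genes (adjusted p = 0.0163 and 0.0344) and in edgeR without the 4 libraries numbered 4 (adjusted p = 0.0483 and 0.0356). Pecam1 had a log2 fold change of 0.96 under isotype (SE 0.27; edgeR adjusted p = 0.0697) and of -0.79 under anti-CD40 (SE 0.30; edgeR adjusted p = 0.105). Its LZ libraries under anti-CD40 all lay below its DZ libraries.

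Ptpn6 lay higher in every LZ library than in any DZ library under both antibodies, by 0.30 on the log2 scale under anti-CD40 (SE 0.13; edgeR adjusted p = 0.145) and by 0.39 under isotype (SE 0.13; edgeR adjusted p = 0.153). Neither difference passed, and LZ libraries all lay above DZ libraries for 8.59% of all tested genes under anti-CD40 and for 4.32% under isotype. For Lyn the log2 fold changes were -0.49 under anti-CD40 and -0.24 under isotype (edgeR adjusted p = 0.241 and 0.8). For Fcgr2b they were -0.35 and -0.61 (edgeR adjusted p = 0.755 and 0.713).

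Genes with a similar pattern over the 4 groups were sought for the 4 members whose group means spanned at least 1 on the log2 scale, among 5422 genes with a mean of at least 20 CPM. The measure was the root mean square difference between the 4 centred group means of log2 CPM. Closest to Cd22 were Fam76b (0.045), Clip2 (0.052) and Tk2 (0.061), and closest to Siglecg were Psap (0.032), Sipa1 (0.035) and Gm19897 (0.038). Closest to Cd72 were Capg and Sh3bp2 (0.11 each) and Nxpe2 (0.13), and closest to Pecam1 were Trim7 (0.076), Mybl1 (0.13) and Srpk3 (0.14). With 4 points per gene, such closeness is a description of these group means. Fcgr2b, Ptpn6 and Lyn spanned less than 1.

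The rest of the inhibitory pathway was then read from lists of further genes. Of 23 other inhibitory receptors 6 were listed and 3 were tested. In the LZ 1 of the 3 passed as lower, as did 8.24% of all tested genes. Clec12a, a C-type lectin with an ITIM, fell in the LZ: it was at 28.9, 22.1, 19.2 and 22.2 CPM in anti-CD40 libraries 1 to 4, against 39.0, 38.2, 44.7 and 42.3 CPM in isotype libraries 1 to 4 (log2 fold change -0.83, SE 0.23; edgeR adjusted p = 0.0143). The groups did not overlap. Milr1, an immunoglobulin-like receptor studied in mast cells, had a log2 fold change of -0.76 (edgeR adjusted p = 0.0886), and Btla, which binds the TNF receptor family member HVEM, had one of -0.54 (edgeR adjusted p = 0.116). None of the 3 passed in the DZ, where 0.147% of all tested genes passed as lower and 2.24% as higher.

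Among 25 effectors and adaptors of inhibition, 22 were listed and 16 tested. In the LZ 2 of the 16 fell and none rose, where 8.24% of all tested genes fell and 10.8% rose, a share near that background. The median log2 fold change was -0.23, against 0.0067 over all tested genes. Of the 16 changes 12 were negative and 4 positive. The most positive was that of the phosphatase gene Ptpn11, at 19 to 29 UMI in anti-CD40 LZ and 2 to 18 UMI in isotype LZ libraries. Its log2 fold change was 0.93 (SE 0.46, edgeR adjusted p = 0.175). Dok3, an adaptor that binds SHIP-1 and Grb2 and dampens B cell receptor signalling, was at 220, 162, 242 and 234 CPM in anti-CD40 LZ libraries 1 to 4, against 521, 594, 625 and 949 CPM in isotype LZ libraries 1 to 4. No anti-CD40 library reached the lowest isotype library, and the log2 fold change was -1.64 (SE 0.21; edgeR adjusted p = 2.99e-05). Inpp5d, which encodes SHIP-1, was at 149 ± 44.1 CPM in anti-CD40 LZ and 246 ± 61.3 CPM in isotype LZ (SD, n = 4 each), with overlap (log2 fold change -0.72, SE 0.25; edgeR adjusted p = 0.0491).

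In the DZ none of the 16 passed, where 0.147% of all tested genes passed as lower and 2.24% as higher. Dok3 had a log2 fold change of -0.52 there (SE 0.20, edgeR adjusted p = 0.273) and Inpp5d one of -0.03 (SE 0.24, edgeR adjusted p = 0.99). The difference between the zones' changes for Dok3 was -1.12 (SE 0.29; edgeR adjusted p = 0.242). Between zones under anti-CD40, Dok3 was lower in the LZ (log2 fold change -1.50, SE 0.21; edgeR adjusted p = 0.000144). So was Inppl1, which encodes the related lipid phosphatase SHIP-2, at 6 to 21 UMI in LZ libraries and 20 to 59 UMI in DZ libraries (log2 fold change -1.16, SE 0.34; edgeR adjusted p = 0.03). These were 2 of the 16 genes, where 5.38% of all tested genes passed as lower. Under isotype the log2 fold changes between zones were -0.38 for Dok3 and -0.20 for Inppl1 (edgeR adjusted p = 0.478 and 0.888).

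Of 7 other Src family kinases 5 were listed and 4 tested. All 4 had negative changes in the LZ, with a median log2 fold change of -0.49, against 0.0067 over all tested genes. There 1 of the 4 passed as lower, as did 8.24% of all tested genes. Blk, a Src family kinase found mainly in B cells, fell to 186 ± 41.8 CPM in anti-CD40 LZ, against 268 ± 47.4 CPM in isotype LZ (SD, n = 4 each; log2 fold change -0.52, SE 0.18; edgeR adjusted p = 0.0492), without overlap. Fgr, at 2 to 10 UMI in anti-CD40 LZ and 10 to 17 UMI in isotype LZ libraries, had a log2 fold change of -1.16 (edgeR adjusted p = 0.0682). Lck had one of -0.46 (edgeR adjusted p = 0.104). None passed in the DZ, where 0.147% of all tested genes passed as lower and 2.24% as higher.

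The list of ligands and sialic acid genes, 11 in all with 10 listed and 6 tested, had no gene past the threshold in any of the 5 comparisons. Its median log2 fold change was -0.47 in the LZ and -0.43 in the DZ, against 0.0067 and -0.01 over all tested genes. St6gal1, the sialyltransferase that builds the ligand of CD22, had a log2 fold change of -0.46 in the LZ (SE 0.35; edgeR adjusted p = 0.425) and of -1.01 between LZ and DZ under anti-CD40 (SE 0.35; edgeR adjusted p = 0.0672). Between LZ and DZ under isotype, the St6gal1 log2 fold change was similar, at -0.98 (SE 0.34, edgeR adjusted p = 0.188). Cmah, the hydroxylase that makes the form of sialic acid preferred by mouse CD22, stood at 3 to 7 UMI in anti-CD40 LZ and 7 to 11 UMI in isotype LZ libraries (log2 fold change -1.003, SE 0.45; edgeR adjusted p = 0.13). Sema4d, the ligand of CD72, was at 282 ± 36.1 CPM in anti-CD40 LZ and 392 ± 82.4 CPM in isotype LZ (SD, n = 4 each; log2 fold change -0.48, edgeR adjusted p = 0.187).

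For contrast, 20 genes of the activating B cell receptor signalosome were followed, all listed and tested. In the LZ 3 of the 20 fell and none rose, where 8.24% of all tested genes fell and 10.8% rose. Of the 20 changes 15 were negative, with a median log2 fold change of -0.35, against 0.0067 over all tested genes. Among those that fell, Plcg2, the phospholipase of the pathway, and the kinase Btk had log2 fold changes of -0.47 and -0.79 (edgeR adjusted p = 0.026 and 0.0349). In the DZ none of the 20 passed, where 0.147% of all tested genes passed as lower and 2.24% as higher. Their median there was -0.18, against -0.01 over all tested genes. Between zones under anti-CD40, Cd79b, a signalling chain of the B cell receptor, and the kinase Syk were lower in the LZ (log2 fold changes -0.68 and -0.78; edgeR adjusted p = 0.0125 and 0.0187). These were 2 of the 20 genes, where 5.38% of all tested genes passed as lower. Under isotype the log2 fold changes were also negative, at -0.44 for Cd79b and -0.57 for Syk (edgeR adjusted p = 0.254 and 0.221). No test compared the lists.

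**Figure D3:**
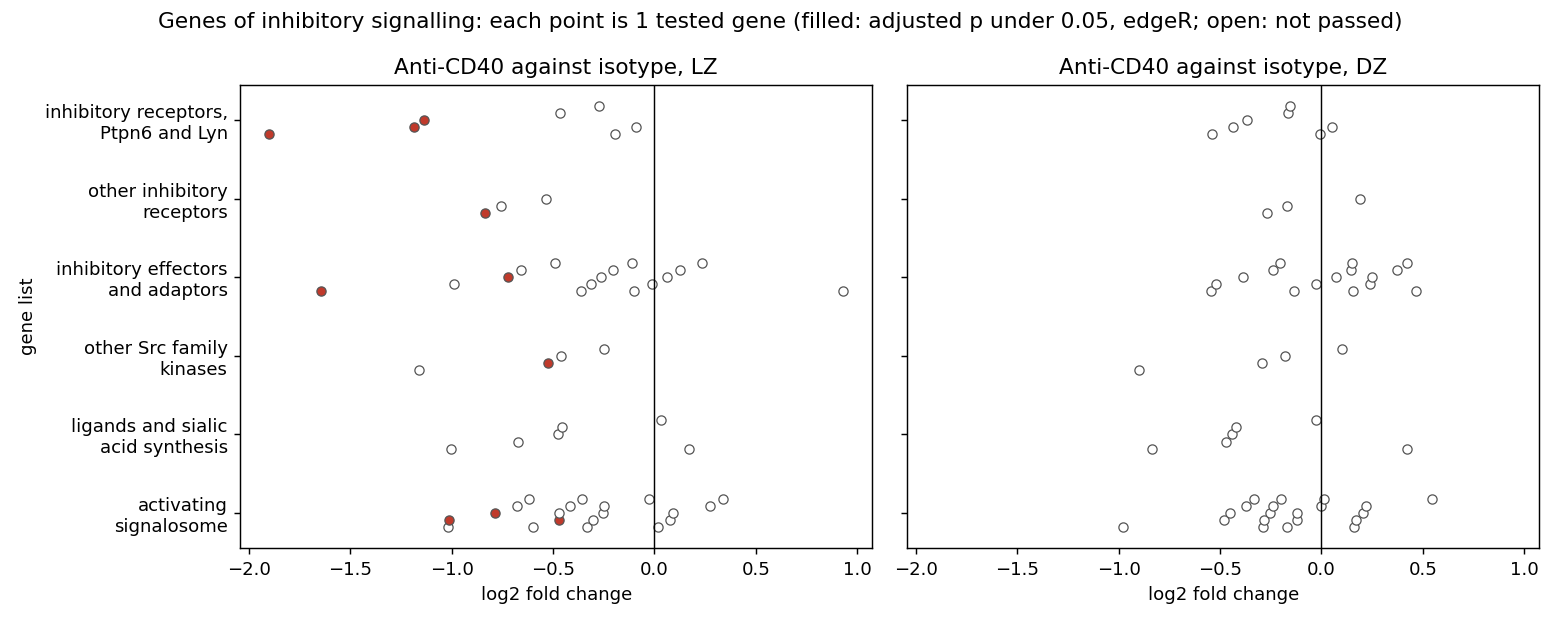
Log2 fold change (anti-CD40 over isotype) of every tested gene of the 6 lists, with LZ on the left and DZ on the right; each point is 1 gene, and filled points passed an adjusted p under 0.05 in edgeR. All filled points belong to the LZ and are negative, from -1.90 (Pecam1) to -0.47 (Plcg2).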

How the data were processed

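Sorted cells were profiled with 3′ end sequencing of bulk RNA, in which each sample is barcoded at reverse transcription, per the labels' protocols. Raw UMI counts per gene are given in the authors' deposited table. Per the submitters' processing notes, cutadapt, STAR, HTSeq, DESeq2 and the build mm10 were used; versions and the strand setting are not given in the sources used here. The authors also deposited a log2 fold change and an adjusted p-value per gene and comparison, used here only where the text names the authors' deposited table.

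The tests used edgeR 4.0.16 under R 4.3.3: genes kept by filterByExpr (minimum count 10; 6824 genes holding 98.6% of UMI), TMM factors, 4 group means over all 16 libraries, robust quasi-likelihood fit, adjustment over all tested genes and a threshold of 0.05. Intervals are 95% t intervals of the fit. Replicate libraries differed beyond counting error in every pair (their chi-square over genes was 1.74 to 11.6 times its degrees of freedom). A UMI count of 0 allows up to 6.14 CPM in the shallowest library (3 counts), for counting error only. Scripts were tested on simulated counts. Positions are from GENCODE vM21 (GRCm38), sequences from RefSeq. Figures were drawn with Matplotlib 3.10.9 in Python 3.11.15.

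All 7 genes were named. From the other lists up to 4 genes that passed and 2 that did not were named per list and comparison, and for each member that varied enough the 3 genes most like it; 1 listed gene that passed is not reported here. The members and lists were chosen with earlier results of these data known. Alternatives were DESeq2 1.42.0, limma-voom (limma 3.58.1), other size factors, other filters, fits of only the groups compared, replicate number as a block, and libraries left out.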

Additional observations from a re-analysis of the deposited data

Results flagged for a closer look

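Lyn in isotype DZ library 4 was at 212 CPM, against 129 to 135 CPM in the other 3 libraries of that group, and so stood far from the others; 28 groups were examined in this way, of which chance flags about 1 in 20.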

How the results depend on the processing

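The falls of Cd22, Siglecg and Pecam1 in the LZ, and the higher Cd72 in isotype LZ than in isotype DZ, kept their direction and passed in all 26 alternatives tried; 18 of 35 member results did not change side or sign in any. With 1 library left out in turn, the LZ log2 fold changes ran from -1.24 to -1.17 for Cd22, from -1.35 to -0.99 for Siglecg and from -2.08 to -1.74 for Pecam1. For the results that changed, the cause was not tested.

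With DESeq2 on the 6824 tested genes, the higher Cd22 (0.55), Pecam1 (0.97) and Ptpn6 (0.39) in isotype LZ than in isotype DZ passed, as did the zone difference of the Cd22 change (-0.76). The stricter filter also passed Cd22 between the isotype zones (0.57). Without the 4 libraries numbered 4, Cd22 (0.61) and Pecam1 (1.03) passed between the isotype zones, while the sign turned, without a call, for the zone difference of the Fcgr2b change (-0.13), for Lyn between the isotype zones (0.0048) and for Pecam1 in the DZ (0.16). The sign also turned, without a call, for Fcgr2b in the LZ with limma-voom (0.19) and for Ptpn6 in the DZ without the filter (8.1e-05). Siglecg between the anti-CD40 zones missed the threshold in the fit of these groups alone (-0.67).

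With 1 library left out in turn, Cd22 and Pecam1 between the isotype zones ran from 0.49 to 0.65 and from 0.80 to 1.21. Their edgeR adjusted p ran from 0.0428 to 0.22 for Cd22 and from 0.0277 to 0.25 for Pecam1, so some of these fits passed. Between the anti-CD40 zones, Cd72 ran from 0.82 to 1.27 and Siglecg from -0.83 to -0.48. Signs varied, without a call, for Fcgr2b in the LZ (-0.64 to 0.026) and its zone difference (-0.10 to 0.55), and in the DZ for Lyn (-0.079 to 0.27), Pecam1 (-0.29 to 0.094) and Ptpn6 (-0.060 to 0.046).

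The replicate numbers are not known to pair the libraries: 18 of 24 same-numbered pairs had a correlation of deviations over 0.1 (range -0.205 to 0.658), and 11 of 16 libraries matched their own number best. The median correlation was 0.348 for same-numbered pairs and -0.0742 for pairs of other numbers. With a replicate block, results that had not passed did so: Cd22 in the DZ (-0.44), between the isotype zones (0.55) and in its zone difference (-0.75), Cd72 in the LZ (-0.52), Pecam1 between the isotype zones (0.95), between the anti-CD40 zones (-0.83) and in its zone difference (-1.79), Ptpn6 between the isotype zones (0.39), and the zone difference of Siglecg (-0.79). The block raised the genes called from 1302 to 2013 in the LZ, from 163 to 427 in the DZ, from 1 to 107 for the zone difference, from 152 to 433 between the isotype zones and from 786 to 1533 between the anti-CD40 zones.

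Other counts of genes that moved by over 1.5 times were those between the isotype zones (152), at 235 with DESeq2 and 101 in the fit of these groups alone, and those for the zone difference (1), at 38 with DESeq2, 2 with upper quartile factors and 0 without the libraries numbered 4 in edgeR. Leave-one-out counts ran from 876 to 1361 in the LZ, 98 to 183 in the DZ, 0 to 2 for the zone difference, 72 to 154 between the isotype zones and 480 to 943 between the anti-CD40 zones. Upper quartile factors and library totals moved the median of all genes in the LZ by -0.108 and -0.118. The log2 fold changes under these 2 were -1.29 and -1.298 for Cd22, -1.235 and -1.251 for Siglecg, and -2.003 and -2.013 for Pecam1. Relative to the median they were -1.19 for Cd22, -1.14 to -1.13 for Siglecg and -1.91 to -1.90 for Pecam1. Size factors shift all genes nearly alike, so these relative values could hardly differ and are no separate check. Counts were low for Fcgr2b and Pecam1, with as few as 5 and 12 UMI in a library. For Fcgr2b the low count did not follow depth. Isotype LZ library 4 had 5 UMI of it among 597833 UMI, and isotype LZ library 3 had 70 among 527241 UMI.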
